A study of Mus musculus with 2 samples.

Results

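The 7 genes of the slow and fast troponin subunits were followed through satellite cells, the stem cells of skeletal muscle, in quiescence and after activation, by single-cell RNA sequencing. They were taken by symbol from the 32285 features that both libraries share, and all 7 were found once: Tnnt1, Tnnt2, Tnnt3, Tnni1, Tnni2, Tnnc1 and Tnnc2. The QSC library held quiescent satellite cells sorted from uninjured tibialis anterior (TA) muscle, and the ASC library held activated satellite cells sorted from the TA muscle 1.5 days after an injection of cardiotoxin, which destroys muscle fibres. All mice were Pax7 CreERT2/+ ;Rosa26 mTmG/+ animals, 8 weeks old, so both groups carried the Cre allele, which is driven by the Pax7 promoter, and the membrane reporter. Each library was a pool of cells from several mice, and each group had 1 library. Library and condition therefore cannot be told apart, no difference has a replicate check, and every interval below is a 95% interval for counting error only.

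Troponin is the calcium switch of the thin filament. Troponin C binds calcium, troponin I holds the filament off until that happens, and troponin T fixes both to tropomyosin. Each subunit is encoded by separate genes in slow and in fast fibres. Tnnt1, Tnni1 and Tnnc1 encode the slow forms, Tnnc1 being shared with the heart, and Tnnt3, Tnni2 and Tnnc2 encode the fast forms. Tnnt2 encodes cardiac troponin T, which is also known from embryonic and regenerating skeletal muscle. Adult TA muscle is made mostly of fast fibres, and satellite cells themselves have no contractile apparatus.

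The genes lie in pairs on 2 of their chromosomes (GRCm38, 1-based, GENCODE M21). Tnni1 (ENSMUSG00000026418, chromosome 1, 135779434 to 135810989) and Tnnt2 (ENSMUSG00000026414, chromosome 1, 135836354 to 135852260) are 25.4 kb apart on the plus strand. Tnni2 (ENSMUSG00000031097, chromosome 7, 142441808 to 142444410) and Tnnt3 (ENSMUSG00000061723, chromosome 7, 142498836 to 142516009) are 54.4 kb apart on the plus strand. Tnnt1 (ENSMUSG00000064179, chromosome 7, 4504570 to 4516382, minus strand) lies 1.92 kb from the heart troponin I gene Tnni3. Tnnc1 (ENSMUSG00000091898, chromosome 14, 31208312 to 31211729) lies wholly inside Nisch on the opposite strand. Tnnc2 (ENSMUSG00000017300, chromosome 2, 164777161 to 164779967) shares 1662 bases with Ube2c and Tnnt3 shares 7936 bases with Prr33, both on the opposite strand. How the counting treated strand is not given in the sources used here, so counts of Tnnc1, Tnnc2 and Tnnt3 are less certain than the others.

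UMIs of the 4 genes that were higher in ASCs and near absent from quiescent fibres were found together in 17 ASC barcodes described below. For Tnnt2 this held only in part, as 266 of its 456 UMIs lay outside those barcodes. The stretches ahead of the start sites of these 4 genes are shown here. They are RefSeq promoters of GRCm38.p6, the first of 2 listed for Tnni1 and Tnnt2, read 5′ to 3′ on the gene's strand from 250 to 31 bases before the start site. The Tnnt1 and Tnni1 stretches lie inside their GENCODE genes, since those RefSeq starts are not the outermost ones. Capitals mark CANNTG, the E-box bound by myogenic factors, and CATTCC or its reverse complement, the core bound by TEAD factors.
Tnnt1, chr7:4516006-4516225, minus strand: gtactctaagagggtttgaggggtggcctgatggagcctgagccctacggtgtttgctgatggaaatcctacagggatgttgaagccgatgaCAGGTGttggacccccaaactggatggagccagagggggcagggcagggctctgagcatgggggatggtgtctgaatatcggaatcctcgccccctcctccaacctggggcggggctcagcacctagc
Tnni1, chr1:135799171-135799390, plus strand: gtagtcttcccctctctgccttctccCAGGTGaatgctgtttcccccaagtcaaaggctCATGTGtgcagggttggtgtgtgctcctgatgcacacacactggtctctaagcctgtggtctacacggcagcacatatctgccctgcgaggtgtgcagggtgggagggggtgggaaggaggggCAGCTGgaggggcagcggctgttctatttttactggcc
Tnnc1, chr14:31208062-31208281, plus strand: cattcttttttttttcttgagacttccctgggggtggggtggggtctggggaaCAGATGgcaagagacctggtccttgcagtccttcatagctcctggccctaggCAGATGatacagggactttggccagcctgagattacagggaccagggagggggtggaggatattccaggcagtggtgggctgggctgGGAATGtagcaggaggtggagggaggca
Tnnt2, chr1:135836084-135836303, plus strand: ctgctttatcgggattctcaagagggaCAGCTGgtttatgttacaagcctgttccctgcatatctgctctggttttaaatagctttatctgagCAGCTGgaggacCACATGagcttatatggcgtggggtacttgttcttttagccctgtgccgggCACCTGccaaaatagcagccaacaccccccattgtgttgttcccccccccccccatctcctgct
CANNTG was found 1 time in the Tnnt1 stretch, 3 times in Tnni1, 2 times in Tnnc1 and 4 times in Tnnt2, and 62.1% of all 32851 promoter stretches of this length hold it on either strand. CATTCC was found only in Tnnc1, against 11.4% of all stretches. The MEF2 core, also searched on both strands, was in none of the 4 stretches and in 2.83% of all. No match overlapped another. These matches describe letters and were not tested as binding sites.

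Barcodes were kept with at least 500 genes and at most 10% mitochondrial UMIs, a UMI being the tag that counts 1 captured transcript. This left 516 of 766 QSC barcodes with 1162091 UMIs and 1468 of 1650 ASC barcodes with 8895815 UMIs, with medians of 2155 and 3502 UMIs and of 4.44% and 0.297% mitochondrial UMIs per barcode. Most ASC barcodes carried many fibre transcripts, against their label as satellite cells: 911 of the 1468 took at least 5% of their UMIs from 14 fibre genes that include no troponin and are called fibre-high here, against 104 of the 516 QSC barcodes. The other muscle barcodes, called fibre-low, numbered 370 in the QSC and 469 in the ASC library. Fibre-low barcodes with at least 1% of UMIs from immune markers numbered 15 and 83, and they served as a cell type that should lack troponin. The satellite cell gene Pax7 stood at 160 CPM (UMIs per 1000000 UMIs of the library or class) in the QSC and 18.4 CPM in the ASC library. Troponin UMIs made up 1.88% and 2.36% of the kept UMIs. Only 4 barcodes were common to both libraries.

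To ask whether troponin transcripts differ between the libraries, the UMIs of each gene were summed over all kept barcodes. Of the 7 genes, 5 were at least 2-fold higher in ASCs and none was 2-fold lower, where 13.4% of the 13758 genes with more than 3 UMIs in a library were at least 2-fold higher. The slow and cardiac genes made up 4 of the 5, and all 4 of these were rare. The median log2 ratio of the 7 genes was 1.42, beside -0.10 over all genes counted. Among the 5730 genes with at least 20 UMIs in each library the median was -0.24, so a ratio near 0 lies slightly above the median gene.

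Among the slow subunits, Tnni1 had 0 UMIs in QSCs and 682 in ASCs, where it stood at 76.7 CPM (71.0 to 82.6). With the QSC count set to the floor of 3 UMIs per library, Tnni1 was at least 29.7-fold higher in ASCs. Tnnc1 had 4 and 632 UMIs, or 3.44 CPM (0.938 to 8.81) and 71.0 CPM (65.6 to 76.8), which gave a log2 ratio of 4.37 (3.004 to 6.25). Tnnt1 had the most UMIs of the slow genes in the QSC library, 56 against 1151, or 48.2 CPM (36.4 to 62.6) and 129 CPM (122 to 137), which gave a log2 ratio of 1.42 (1.04 to 1.84). The cardiac gene Tnnt2 had 1 UMI in the QSC and 456 in the ASC library, or 0.861 CPM (0.0218 to 4.79) and 51.3 CPM (46.7 to 56.2), and a log2 ratio of 5.90 (3.41 to 11.20). None of the interval pairs of these 4 genes overlapped between the libraries.

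The fast subunits were far more frequent and differed less between the libraries. Since each captured transcript gives 1 tag at its 3′ end, levels of different genes were compared in CPM with no term for length. Tnnc2, fast troponin C, was the most frequent troponin in both libraries, at 9640 CPM in QSCs and 10887 CPM in ASCs, a log2 ratio of 0.18 (0.15 to 0.20). Tnnt3, fast troponin T, stood at 6090 and 6017 CPM, a log2 ratio of -0.02 (-0.05 to 0.02). Tnni2, fast troponin I, differed from its partners, with 3018 CPM (2919 to 3119) in QSCs and 6360 CPM (6307 to 6412) in ASCs, which gave a log2 ratio of 1.08 (1.03 to 1.13). Tnnt3 and Tnni2 thus changed places in the order of levels between the libraries. The ratios of Tnnc2 and Tnnt3 had no stable direction. With barcodes limited to 1% mitochondrial UMIs their log2 ratios were -0.83 and -1.001, so that Tnnt3 was just 2-fold lower. With at least 1000 genes per barcode they were 0.80 and 0.63. The log2 ratio of Tnni2 was 0.12 with the 1% limit, so that 4 of the 7 genes were 2-fold higher.

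As a share of each subunit, slow transcripts were few in both libraries. Tnni1 made up 0 of 3507 troponin I UMIs in the QSC library, which allows a share of up to 0.105%. In the ASC library it made up 1.19% (1.10 to 1.28) of 57255. Tnnc1 made up 0.0357% (0.00973 to 0.0914) and 0.648% (0.599 to 0.701) of troponin C UMIs. Tnnt1 made up 0.785% and 2.09% of troponin T UMIs, and Tnnt2 0.0140% and 0.827%.

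**Figure D1:**
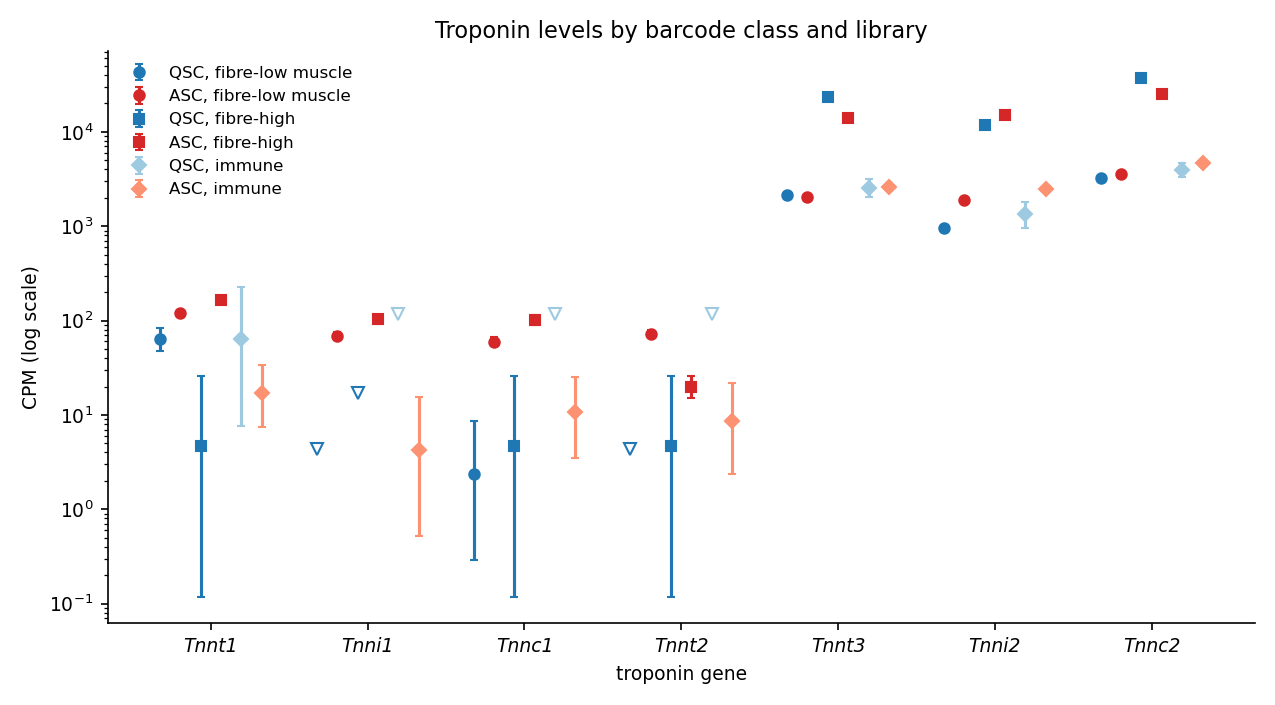
Levels of the 7 troponin genes in CPM (log axis) in fibre-low muscle barcodes (circles), fibre-high barcodes (squares) and immune barcodes (diamonds) of the QSC library (blue) and the ASC library (red). Bars are exact Poisson 95% intervals and open triangles mark the upper bound where no UMI was found. The fast genes Tnnt3, Tnni2 and Tnnc2 lie near 1000 CPM or above in every class, immune barcodes included, while slow genes are low throughout.

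Next, the barcodes were divided by their fibre transcripts, since the ASC library held 911 fibre-high barcodes and the QSC library 104. In fibre-high barcodes 4 of the 7 genes were at least 2-fold higher in ASCs, where 11.6% of 9908 genes were, and these were Tnnt1, Tnnt2, Tnni1 and Tnnc1. Quiescent fibre-high barcodes held 1 UMI of Tnnt1, 1 of Tnnt2, 1 of Tnnc1 and 0 of Tnni1, beside 5025 of Tnnt3 and 8053 of Tnnc2. Activated fibre-high barcodes held 491 UMIs of Tnnt1, 59 of Tnnt2, 299 of Tnnc1 and 305 of Tnni1, or 166, 20.001, 101.4 and 103 CPM in the same order. The ratio of Tnnt2 rests on the 1 QSC UMI and its interval reaches below 0 (log2 2.10, -0.43 to 7.43), while those of Tnnt1 and Tnnc1 were 5.16 (2.67 to 10.46) and 4.44 (1.95 to 9.75), and Tnni1 was at least 7.39-fold higher. These values rested on 6 barcodes described below, without which Tnni1 stood at 9.24 CPM, under the 13.99 CPM that 3 UMIs make in QSC fibre-high barcodes, so that its call was lost, and the log2 ratios were 2.38 (-0.14 to 7.71) for Tnnt1, 1.85 (-0.70 to 7.18) for Tnnc1 and 1.48 (-1.09 to 6.82) for Tnnt2. Fast troponins T and C were lower in ASC fibre-high barcodes, Tnnt3 with a log2 ratio of -0.75 (-0.80 to -0.71) and Tnnc2 with -0.56 (-0.59 to -0.53), while Tnni2 was higher, with 0.35 (0.30 to 0.41).

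In fibre-low muscle barcodes 3 of the 7 genes were at least 2-fold higher in ASCs, where 15.9% of 12829 genes were. Tnnt2 had 0 and 393 UMIs and was at least 20.2-fold higher, and Tnni1 had 0 and 375 and was at least 19.3-fold higher. Tnnc1 had 2 and 326 UMIs, a log2 ratio of 4.65 (2.79 to 7.70). Tnni2 lay just under the limit with a log2 ratio of 0.97 (0.87 to 1.08), as did Tnnt1 with 0.92 (0.52 to 1.36). Tnnt3 and Tnnc2 had log2 ratios of -0.04 (-0.11 to 0.03) and 0.12 (0.07 to 0.18). The slow values rested largely on a few barcodes described below. Without these, Tnni1 was at least 2.61-fold and Tnnt2 at least 11.7-fold higher, and the log2 ratio of Tnnc1 was 2.55 (0.65 to 5.63). That of Tnnt1 turned to -0.65 (-1.09 to -0.19).

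Fast troponin transcripts were found in nearly every barcode, whatever its type. Tnnc2 had a UMI in 516 of 516 QSC and 1468 of 1468 ASC barcodes. In ASC immune barcodes, which should lack it, the level of Tnnc2 was 4635 CPM (4442 to 4835), whereas ASC fibre-low muscle barcodes had 3554 CPM (3504 to 3604). Tnnt3 stood at 2622 CPM in ASC immune and 2065 CPM in ASC fibre-low barcodes, and at 2571 and 2121 CPM in the same classes of the QSC library. Tnni2 stood at 2472 and 1897 CPM in ASC immune and fibre-low barcodes, and at 1333 and 966 CPM in QSCs. The fast troponin levels of fibre-low muscle barcodes were thus no higher than those of immune barcodes and are read as background, and the ratios of fast troponins in fibre-low barcodes describe that background. Fibre-high barcodes stood clear of it, with 6.72-fold (Tnnt3), 8.05-fold (Tnni2) and 7.17-fold (Tnnc2) higher levels than fibre-low barcodes in ASCs, and 11.0-fold, 12.4-fold and 11.5-fold in QSCs.

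The slow troponins behaved otherwise and were concentrated in very few ASC barcodes. Of the 682 Tnni1 UMIs, 50% lay in 4 barcodes, and 5 barcodes held 50% of Tnnc1 and of Tnnt1. Tnnt2 needed 11 barcodes, whereas the fast genes needed 290 to 305. The highest count in a barcode was 202 for Tnnt1, 145 for Tnni1, 106 for Tnnc1 and 71 for Tnnt2, and the same barcode held all 4. Most barcodes with a Tnni1 UMI held only 1 (62 of 87), as did most with Tnnc1 (100 of 130).

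**Figure D2:**
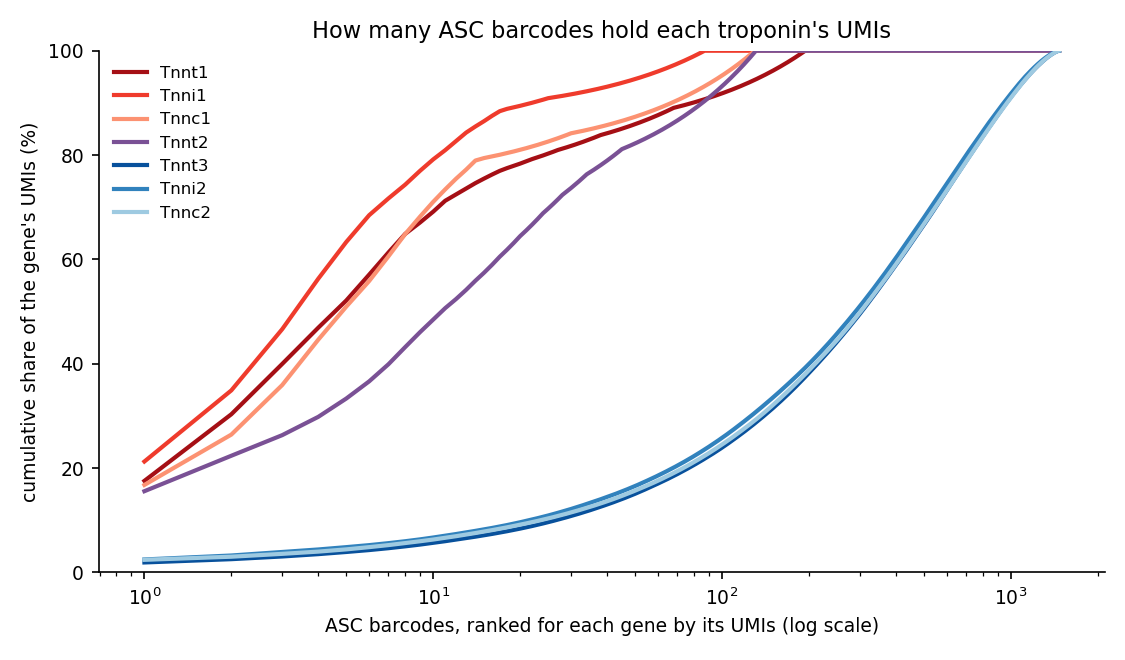
Cumulative share of each gene's UMIs (percent) over the 1468 ASC barcodes, ranked separately for each gene by its UMIs (log axis). The curves of Tnni1, Tnnc1 and Tnnt1 pass 50% at 4 or 5 barcodes and that of Tnnt2 at 11, whereas the fast genes pass it at 290 to 305.

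After these values were seen, barcodes with at least 5 UMIs of Tnni1 and Tnnc1 together were set apart to describe them. There were 17 such barcodes among ASCs and 0 among QSCs. The 17 were 1.16% of the kept ASC barcodes and 1.28% of their UMIs. They held 88.4% of all Tnni1 and 79.3% of Tnnc1 UMIs, the counts that chose them, and also 74.5% of Tnnt1 and 41.7% of Tnnt2 UMIs. Only 1 of the 17 had under 10 such UMIs, and 6 barcodes lay just below the limit with 3 or 4. By their fibre transcripts 6 of the 17 were fibre-high and 11 were fibre-low, so they lay on both sides of the 5% limit. Their share of fibre transcripts was 1.05% to 10.0% (median 4.42%), against 1.32% over all ASC fibre-low muscle barcodes. Of slow-fibre genes, the 14 fibre genes include only Myh7, Myl2 and Myl3. How far this choice of genes set their class was not tested. None was an immune, stromal or endothelial barcode. None held a Pax7 UMI, but the interval allows up to 1.76-fold the Pax7 level of the remaining 1451 ASC barcodes. This 0 therefore does not set them apart.

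At least 1 UMI of each of the 3 slow subunits was found in 16 of the 17 barcodes, but Tnnc1 varied widely among them. For description they were divided, after the values were seen, into 14 with at least 5 Tnnc1 UMIs and 3 with fewer, so the Tnnc1 values below follow from the division. The 14 held 9 to 202 UMIs of Tnnt1 (median 45), 6 to 145 of Tnni1 (median 20) and 11 to 106 of Tnnc1 (median 28.5). Slow forms were the larger part of each subunit in most of them: Tnni1 made up 57.1% to 93.0% of troponin I UMIs (median 80.9%), Tnnc1 45.8% to 87.5% of troponin C (median 68.1%) and Tnnt1 34.5% to 86.4% of troponin T (median 74.99%). Tnnt2 was found in 11 of the 14, with up to 71 UMIs. They had 1019 to 10847 UMIs each, with 0.0262% to 1.77% mitochondrial UMIs.

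Of the 10 genes of the slow list, 6 had intervals in these 14 barcodes above those of the remaining 1451 ASC barcodes, namely Myh7, Myl2, Myl3, Myoz2, Tpm3 and Actn2. Atp2a2, the slow calcium pump gene, did not, with 2 UMIs or 33.5 CPM (4.05 to 121) against 37.7 CPM (33.7 to 42.0). Mybpc1, with 83.7 against 68.8 CPM, did not either, and Casq2 and Myh7b had 0 UMIs. The slow myosin light chain genes Myl2 and Myl3 had UMIs in 13 and 14 of them, with 281 and 317 UMIs in all. Tpm3, the slow tropomyosin, had 986 UMIs, and the slow myosin heavy chain gene Myh7, which had 26 UMIs in the whole ASC library, had 24. Myl4, the light chain of embryonic and atrial muscle, had UMIs in 11 of the 14. Across all 17 barcodes Myl2 stood at 2472 CPM, against 21.3 CPM in the remaining 1451 ASC barcodes, and Tpm3 at 8699 against 210 CPM. Markers of heart were at or near 0 in the ASC library, with 2 UMIs of Tnni3, 2 of Myh6 and 4 of Nppa.

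The 3 barcodes with fewer Tnnc1 UMIs held 7 to 12 UMIs of Tnni1 and 7 to 16 of Tnnt2, but at most 1 of Tnnc1, at most 2 of Tnnt1 and 0 of Myl2. They held 7, 167 and 176 UMIs of Myog, the factor gene of differentiating myoblasts, and up to 130 of Actc1, the cardiac and embryonic actin gene.

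**Figure D3:**
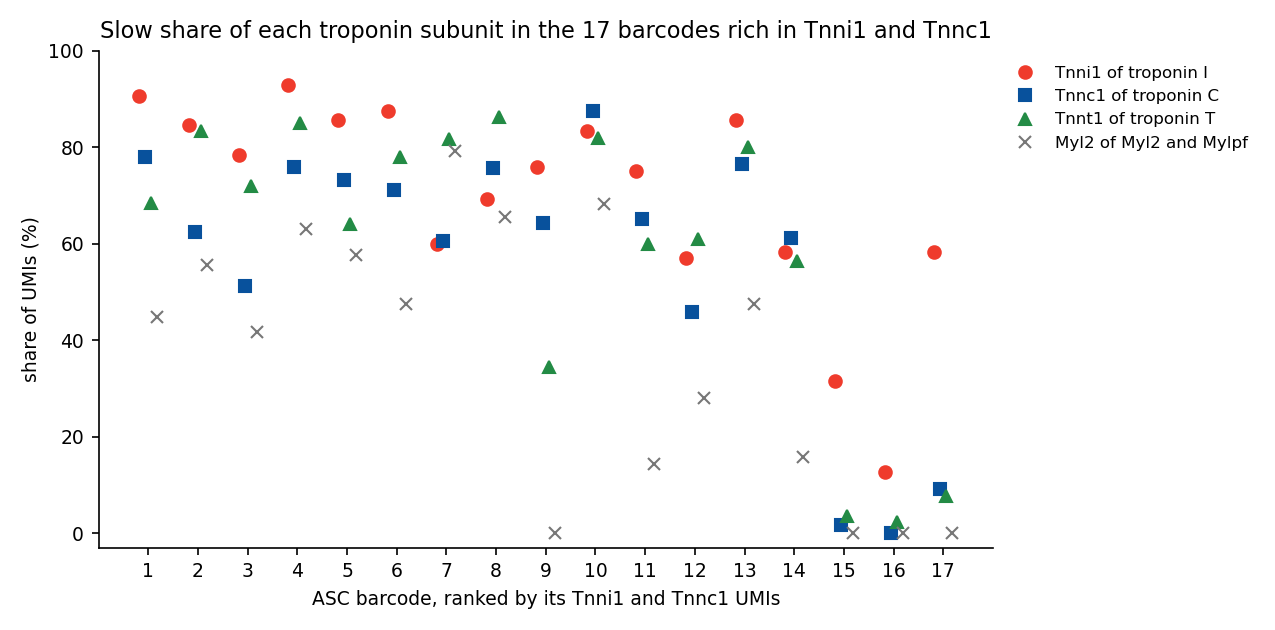
Share of UMIs (percent) that the slow gene took of troponin I (circles), troponin C (squares) and troponin T (triangles), and Myl2 of Myl2 and Mylpf (crosses), in each of the 17 ASC barcodes with at least 5 UMIs of Tnni1 and Tnnc1, ranked by those UMIs. In the first 14 barcodes Tnni1 lies between 57.1% and 93.0% and Tnnc1 between 45.8% and 87.5%, while in the last 3 Tnnc1 lies at 9.09% or below.

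The ASC values of the slow genes rested on these 17 barcodes. Without them Tnni1 stood at 8.996 CPM (7.12 to 11.2), Tnnc1 at 14.9 CPM (12.5 to 17.7) and Tnnt1 at 33.5 CPM (29.8 to 37.5), and the log2 ratio of Tnnt1 over QSCs turned to -0.53 (-0.94 to -0.09). Tnni1 was then at least 3.48-fold higher than in QSCs, in place of 29.7-fold, and the log2 ratio of Tnnc1 was 2.12 (0.72 to 4.01). Immune barcodes of the ASC library stood at 4.29 CPM of Tnni1 (0.520 to 15.5), 10.7 CPM of Tnnc1 (3.48 to 25.04) and 17.2 CPM of Tnnt1 (7.41 to 33.8). The 458 fibre-low barcodes that were left had Tnni1 at 9.31 CPM (6.91 to 12.3) and Tnnc1 at 14.0 CPM (11.0 to 17.5). Both lay within the immune intervals, which rest on 2 and 5 UMIs. The removal used these same 2 genes, which limited in advance what could be left. Pooled, they were not told apart from background. Among the barcodes left, those with 50 or more Myog UMIs, described below, had Tnni1 at 28.5 CPM (15.9 to 46.9). Over all the 458 fibre-low barcodes, Tnnt1 at 40.1 CPM (34.9 to 45.8) and Tnnt2 at 41.7 CPM (36.4 to 47.6) lay above the immune intervals. Tnnt2 stood at 8.58 CPM (2.34 to 22.0) in immune barcodes. In fibre-high barcodes the same removal left Tnnt1 at 24.3 CPM (19.0 to 30.7), Tnnc1 at 16.8 CPM, Tnnt2 at 13.01 CPM and Tnni1 at 9.24 CPM. Tnnt2 was also higher than in QSCs over all barcodes, at 30.3 CPM and a log2 ratio of 5.14.

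Fibre-high barcodes were also divided by their light chains, a split that used no troponin. Only 4 of the 911 ASC fibre-high barcodes had at least 50% Myl2 among Myl2 and Mylpf UMIs, and no QSC barcode did. With so low a share, the 104 QSC fibre-high barcodes were too few to tell whether slow ones were absent. In these 4, Tnni1 made up 83.8% (78.4 to 88.4) of 229 troponin I UMIs, Tnnc1 68.5% (62.4 to 74.1) of 257 troponin C UMIs and Tnnt1 83.6% of troponin T UMIs. In the 903 fast ASC fibre barcodes the same shares were 0.251% (0.207 to 0.302), 0.164% (0.136 to 0.195) and 0.588%. All 4 slow fibre barcodes were among the 17 described above. So were 2 of the 903 fast ones, whose Myl2 shares of 41.8% and 47.6% lay just under the limit and whose Tnni1 shares of 78.4% and 85.7% were like those of the slow ones. These 2 held 86 of the 113 Tnni1, 74 of the 123 Tnnc1 and 171 of the 242 Tnnt1 UMIs of the fast class. Without them the shares were 0.0601% (0.0396 to 0.0874) for Tnni1, 0.0653% (0.0483 to 0.0864) for Tnnc1 and 0.173% (0.135 to 0.219) for Tnnt1.

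Whether troponins go with commitment to differentiation was examined in the ASC fibre-low barcodes, by comparing the 147 with at least 2 Myog UMIs with the 241 at 0. None of the 7 genes was at least 2-fold higher in the Myog-detected barcodes, where 5.54% of 11816 genes were. This count depended on the limits chosen, as it was 4 with the fibre limit at 10% in place of 5%, 1 under 5 other alternatives and 0 after thinning to 1200 UMIs. Tnnt2 came nearest, with 85.4 against 43.3 CPM and a log2 ratio of 0.98 (0.60 to 1.37). Tnnt1 was lower, with 63.3 against 109 CPM and a log2 ratio of -0.79 (-1.09 to -0.48), and the fast genes had log2 ratios from -0.16 to -0.15. Myog-detected barcodes were deeper, with a median of 13494 UMIs against 4982. Without the 17 slow-rich barcodes, Tnnt2 passed the limit, with 62.0 against 26.4 CPM, and Tnnt1 stood at 41.9 and 44.1 CPM.

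Bins of Myog, chosen after that comparison was seen, placed Tnnt2 in the barcodes with the most Myog. Without the 17 barcodes, Tnnt2 stood at 26.4 CPM (19.5 to 34.8) where Myog was 0, at 8.66 CPM (4.61 to 14.8) with 2 to 9 Myog UMIs and at 24.7 CPM (11.8 to 45.4) with 10 to 49. In the 38 barcodes with 50 or more Myog UMIs it stood at 243 CPM (203 to 289), with a UMI in 21 of them. Tnnt1 was also highest there, at 91.1 CPM (67.2 to 121) against 44.1 CPM at 0, and Tnni1 reached 28.5 CPM (15.9 to 46.9), whereas Tnnc1 stayed at 13.3 CPM (5.34 to 27.4). Tnnt3, Tnni2 and Tnnc2 were not higher in that bin than at 0 Myog, with 1869 against 2164 CPM for Tnnt3. No Pax7 UMI was found in these barcodes. Their median depth of 12988 UMIs lay below the 21782 of the barcodes with 2 to 9 Myog UMIs, in which Tnnt2 was lowest.

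**Figure D4:**
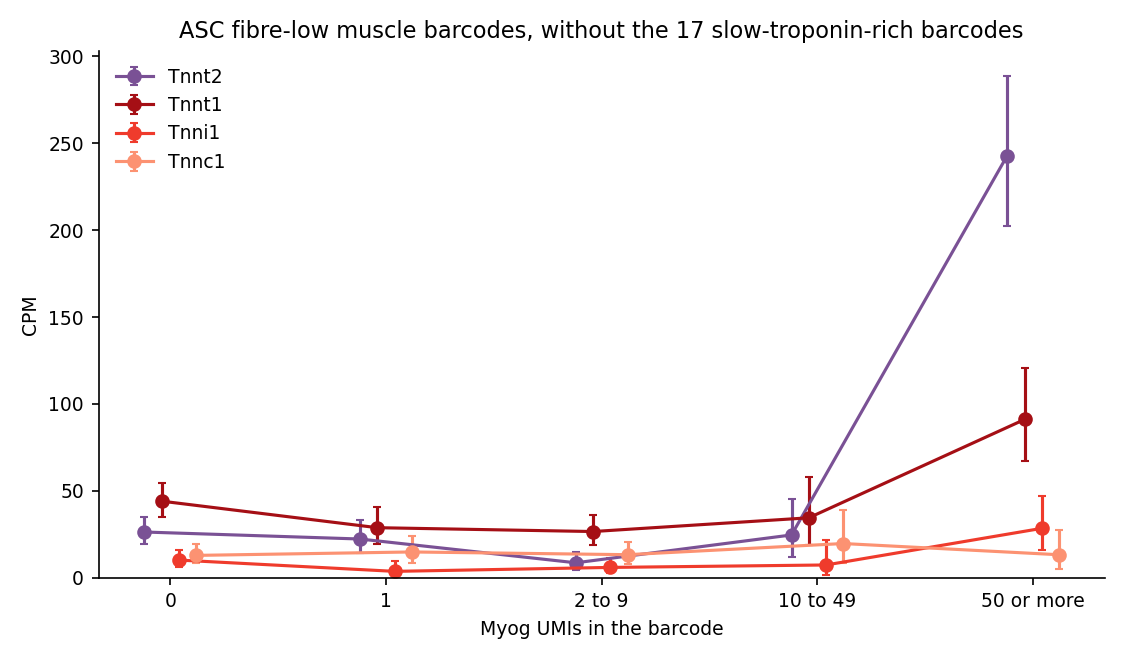
CPM of Tnnt2, Tnnt1, Tnni1 and Tnnc1 in ASC fibre-low muscle barcodes grouped by their number of Myog UMIs, without the 17 slow-rich barcodes. Bars are exact Poisson 95% intervals. Tnnt2 reaches 243 CPM at 50 or more Myog UMIs and lies between 8.66 and 26.4 CPM in the other groups, while Tnnc1 is level.

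In quiescent cells Tnnt1 was spread thinly and lay outside fibre barcodes. Its 56 UMIs came from 48 barcodes with 1 or 2 each. Fibre-low muscle barcodes held 53 of them, or 63.1 CPM (47.2 to 82.5), and fibre-high barcodes held 1, or 4.66 CPM (0.118 to 26.0), the reverse of the fast troponins. None of the 22 stromal barcodes held a Tnnt1 UMI, but 1 of 15 immune barcodes held 2, or 63.5 CPM (7.69 to 229). With every barcode thinned to 1200 UMIs, 8.26% (5.65 to 11.6) of 363 fibre-low barcodes had a Tnnt1 UMI. This stood against 0 of 90 fibre-high barcodes, which allows a share of up to 4.02%, and 1 of 12 immune barcodes, or 8.33% (0.211 to 38.5). Median depths were 2218 UMIs in fibre-low and 2036 in immune barcodes. The interval of fibre-low barcodes lay above the limit for fibre-high barcodes, while 12 immune barcodes were too few to give a background level. Without thinning the share was 12.4%.

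After thinning, the order of the slow genes in ASC barcodes was kept. A Tnnt1 UMI was found in 8.35% (5.98 to 11.3) of 455 fibre-low and 1.25% (0.0316 to 6.77) of 80 immune barcodes, a Tnnt2 UMI in 4.84% (3.05 to 7.23) and 2.50% (0.304 to 8.74), a Tnnc1 UMI in 3.74% (2.19 to 5.91) and 1.25%, and a Tnni1 UMI in 3.52% (2.02 to 5.65) and 1.25%. The intervals overlapped for all 4 genes, so shares of barcodes alone did not separate the classes. The unthinned shares in fibre-low barcodes were 27.3%, 18.6%, 14.9% and 11.5%.

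The balance among the fast subunits was then compared within fibre-high barcodes, where their levels stood clear of background. Tnni2 was at 0.318 UMIs per Tnnc2 UMI (0.304 to 0.333) in QSCs and at 0.599 (0.592 to 0.606) in ASCs, a 1.88-fold difference (1.798 to 1.97). Tnnt3 per Tnnc2 went the other way, with 0.624 and 0.545, a ratio of 0.873 (0.841 to 0.906). The comparison was chosen after the levels were seen. It does not depend on library size, since both counts come from the same barcodes.

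The shift of Tnni2 was seen across fibre-high barcodes and not in a few. Of Tnni2 and Tnnt3 UMIs together, Tnni2 took 16.7% to 54.2% in the 104 QSC barcodes, with a median of 33.6%, and 14.3% to 87.5% in the 911 ASC barcodes, with a median of 51.9%. Tnni2 outnumbered Tnnt3 in 3 QSC and in 525 ASC barcodes, and the ranges overlapped. The background carried the same difference, with 0.296 and 0.534 Tnni2 per Tnnc2 in fibre-low barcodes (1.803-fold, 1.66 to 1.96) and 0.336 and 0.533 in immune barcodes (1.59-fold, 1.11 to 2.27). Within the ASC library, fibre-high barcodes were split by the stress genes Ankrd1 and Csrp3, with those between the limits left out. The 610 with at least 3 UMIs had 0.603 Tnni2 per Tnnc2 (0.595 to 0.611) and the 80 with 0 had 0.592 (0.562 to 0.623). The same split by Mt3 and Trim63 gave 0.583 (0.573 to 0.594) in 327 and 0.619 (0.603 to 0.635) in 249. Only the second pair of intervals did not overlap.

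**Figure D5:**
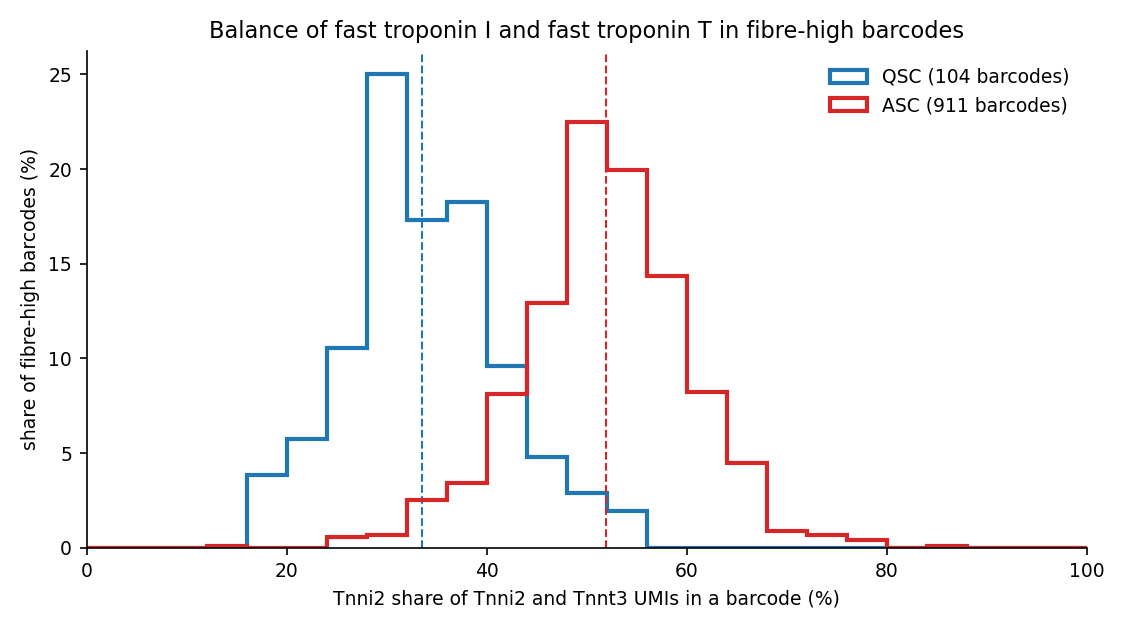
Share of Tnni2 among Tnni2 and Tnnt3 UMIs (percent) in each fibre-high barcode of the QSC library (blue, 104 barcodes) and the ASC library (red, 911 barcodes), drawn as percent of the library's fibre-high barcodes. Dashed lines mark the medians of 33.6% and 51.9%, and the ranges overlap.

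The other proteins of the contractile apparatus were compared over all barcodes by lists, beside 13.4% of all genes at least 2-fold higher and 25% at least 2-fold lower. Of 12 thin filament genes, 2 were at least 2-fold higher in ASCs, Actc1 and Lmod3, and 1 was lower, the nebulin gene Neb, with a median log2 ratio of 0.28, so the share of higher genes was near that of all genes. The tropomyosin genes to which troponin T binds, Tpm1 and Tpm2, had log2 ratios of 0.24 and 0.31, as did the skeletal actin gene Acta1 with 0.24 (0.21 to 0.26). Of 10 fast genes, 3 were higher, namely Myh4, Mylpf and Pvalb, and 2 were lower, Myh1 and Myh2. Mylpf, the fast regulatory light chain gene, had a log2 ratio of 1.16 (1.12 to 1.20), and Pvalb, the calcium buffer of fast fibres, 1.10 (1.04 to 1.15), both near the 1.08 of Tnni2, while the fast actinin gene Actn3 had 0.27.

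Of 9 slow genes measured, only Myl2 was higher, with 3 and 468 UMIs (log2 ratio 4.35, 2.79 to 6.63), again near the share of all genes, and none was lower. Tpm3, Actn2 and Mybpc1 had log2 ratios of 0.05, 0.50 and -0.45. Of 7 developmental genes measured, Actc1, Myl4, Myl6b and Mymk were higher, with Actc1 at log2 4.60 and Myl4 at 2.29, and Tnni3 was lower on 4 and 2 UMIs (log2 ratio -3.94, -7.40 to -1.13). Of 14 regulators, Myod1, Myog and Tead4 were higher and Prox1 and Nfatc1, both known in the slow fibre programme, were lower. Myog had a log2 ratio of 4.62, Myod1 1.45 and Mef2c 0.48.

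Finally, the genes most like each troponin were sought over the ASC barcodes of each class, by Pearson correlation of log counts per 10000 among genes with a UMI in at least 5% of the barcodes. All barcodes of a class come from the same library and share its background and differences in depth, so the correlations are descriptions. In the 469 fibre-low barcodes the slow genes were most like each other and Myl6b, a light chain gene of the developmental list. The values were r = 0.87 for Tnni1 and Tnnc1, 0.87 for Tnnc1 and Myl6b and 0.74 for Tnnt1 and Myl6b. Tnnt2 was most like Tnni1 (0.71), Myl6b (0.70) and Myl4 (0.69), and the light chain gene Myl10 was among the nearest 3 for Tnni1 (0.76) and for Tnnc1 (0.82). The fast genes followed another set, Tnnc2 with Mylpf at 0.76, Tnni2 with Tnnc2 at 0.74, Tnnt3 with Tnnc2 at 0.72, and Tpm1 among the nearest 3 of each at 0.64 to 0.73. Between slow or cardiac and fast genes r lay from -0.05 to 0.05. Of the 375 Tnni1, 326 Tnnc1 and 652 Tnnt1 UMIs of this class, 50, 75 and 215 lay outside the slow-rich barcodes. For Tnnt2, 224 of 393 did. No correlation was computed without the slow-rich barcodes.

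In the 911 fibre-high barcodes the sets were set against each other. Tnnt1 was most like Myl2 (0.65), Tnnc1 (0.60) and Myl3 (0.52), Tnnc1 most like Tnnt1, Myl2 (0.55) and Tpm3 (0.53), and Tnni2 most like Tnnc2 (0.70), Tpm1 (0.60) and Tnnt3 (0.57). Tnnt3 was most like Tpm1 (0.58), and Myl1 was among the nearest 3 of Tnnc2 (0.59). Between the 3 slow and the 3 fast genes r lay from -0.35 to -0.25. Tnni1 had Tnnt1 (0.64) and Tnnc1 (0.64) as its nearest genes, and Tnnt2 had r of at most 0.25 to any other troponin. Both had a UMI in under 5% of the fibre-high barcodes, so neither could be named among the nearest genes of another. By r alone, Tnni1 was closer to Tnnc1 than Tnnt1 was. Of the 491 Tnnt1 and 299 Tnnc1 UMIs of this class, 71 and 49 lay outside the slow-rich barcodes. Here too no correlation was computed without the slow-rich barcodes.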

How the data were processed

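Sorted cells of the TA muscle were profiled by droplet-based 3′ single-cell RNA sequencing. The deposited values are counts, whole numbers of UMIs per gene and barcode, which the authors made with Cell Ranger. The file headers name version 6.0.2, and the submitters' processing notes name 7.1.0, Seurat 4.1.0, R 4.1.2 and the mm10 build. The study kept barcodes with 500 genes and at most 1% mitochondrial UMIs, a limit used here as an alternative because it kept 86 QSC barcodes.

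UMIs were summed per library and class with Python 3.11.15, numpy 2.4.6 and scipy 1.17.1. CPM carry exact Poisson intervals, ratios exact conditional binomial intervals and shares exact Clopper-Pearson intervals, all at 95% and for counting error only. There was 1 library per group, so no p-value was computed. A gene was counted as higher at 2-fold, with more than 3 UMIs in a group, and a count of 0 was set to 3 for a bound. Depth per library is given in the results, and 3 UMIs correspond to 2.58 CPM in the QSC and 0.337 CPM in the ASC library. Immune, stromal and endothelial barcodes were fibre-low with at least 1% of UMIs from that marker list. Doublets were not removed. Intervals were checked on simulated counts. Alternatives changed the limits on mitochondrial UMIs, genes per barcode, fibre transcripts and Myog, the scaling, and the barcodes kept.

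The members and lists were chosen with earlier results of these data known. Named genes are the 7 members, the 3 nearest genes of each by correlation, and the 3 genes with the most UMIs of each list. Genes past 2-fold in a list are named as well, and genes described in the 17 slow-rich barcodes, that class itself, the Myog bins and the ratios among fast subunits were chosen after values were seen. Promoters of Tnnt3 and Tnni2 are not shown here.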

Additional observations from a re-analysis of the deposited data

Results flagged for a closer look

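Tnnc2, fast troponin C, differed in direction between classes, with a log2 ratio of ASCs over QSCs of -0.56 in fibre-high and 0.12 in fibre-low muscle barcodes. The difference was not tested, since each group had 1 library, and the fibre-low level was no higher than that of immune barcodes.

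Barcodes outside the comparisons, which had under 500 genes or over 10% mitochondrial UMIs, held more troponin than those that were kept. The 7 genes made up 6.54% of the UMIs of the 250 QSC barcodes left out, against 1.88% of the kept ones, and 3.18% of the UMIs of the 182 ASC barcodes left out, against 2.36%.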

How the results depend on the processing

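No paired analysis was possible because each group had 1 library, and for the same reason no replicate was left out. The number of troponins at least 2-fold higher in ASCs over all barcodes was 4 or 5 under the 10 alternatives run. In fibre-low barcodes it was 5 with the fibre limit at 10% in place of 5%, and 0 with at most 1% mitochondrial UMIs, where 1 QSC fibre-low barcode was left. In Myog-detected barcodes it was 1 with the fibre limit at 2%, with at most 1% mitochondrial UMIs, with a Myog limit of 1 or of 5 UMIs, and without the 17 slow-rich barcodes, and 4 with the fibre limit at 10%.

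Tnnc2 turned direction, to log2 ratios of -0.83 and -0.17 with at most 1% and 5% mitochondrial UMIs and -0.23 with every deposited barcode, and Tnnt1 turned to -0.53 without the 17 barcodes. Tnnt3 ranged from -1.001 with at most 1% mitochondrial UMIs to 0.63 with at least 1000 genes. The causes were not tested.

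The ASC slow share of troponin I was 1.35% with at most 1% mitochondrial UMIs, 1.37% with at least 1000 genes, 1.05% as a mean over barcodes and 0.140% without the 17 barcodes. For troponin C these values were 0.711%, 0.717%, 0.825% and 0.136%. In fast fibres the share of troponin I was 0.727% with the fibre limit at 2%, 0.0561% at 10% and 0.0530% when fibres were typed by myosin heavy chains, and that of troponin C 0.385%, 0.0532% and 0.0623%. In slow fibres, of which 1 was left at 10%, the shares were 60.0% and 60.6%. In Myog-detected barcodes the troponin I share was 1.16% at 2%, 6.11% at 10% and 20.6% with at most 1% mitochondrial UMIs, and the troponin C share 0.455%, 2.48% and 8.16%. In barcodes without Myog the troponin I share was 0.587%, 0.666% and 7.77%, and the troponin C share 0.377%, 0.475% and 4.38%. Without the 17 barcodes the troponin I shares were 0.0601% in fast fibres, 0.624% in Myog-detected barcodes and 0.516% in those without Myog, and the troponin C shares 0.0653%, 0.430% and 0.341%, with no slow fibre left. No barcode counted as a slow fibre by heavy chains. That split needed at least 10 heavy chain UMIs with at least 50% Myh7, which had 26 UMIs in the whole ASC library. Hardly any barcode could pass it, so it says nothing about slow fibres.

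Tnni2 per Tnnc2 in fibre-high barcodes was 1.98-fold higher in ASCs with the fibre limit at 10% and 1.74-fold with at least 1000 genes per barcode. The alternatives of that ratio, and those without the 17 or the shared barcodes, were chosen after seeing the data. Depth limits the slow genes in QSCs, where 3 UMIs make 2.58 CPM over all barcodes and 14.0 CPM in fibre-high ones.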
